A study of Mus musculus with 14 samples.

Results

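The genes described here are 9 genes of retinoid (vitamin A) metabolism in mouse liver: the retinol dehydrogenase genes Rdh16, Rdh16f2, Rdh9, Rdh10 and Rdh11, the esterifying enzyme Lrat, the plasma carrier Rbp4, the retinoic acid hydroxylase Cyp26a1 and the retinoic acid receptor Rarb. They were found on the arrays by the RefSeq accession of each probe, and are 9 of 19751 genes named in this way. They were represented by 11 probes, since Rdh16f2 and Rarb had 2 probes each. Liver RNA came from CD-1 mice, an outbred strain, of 6 groups: males and females aged 3 wk (M3 and F3), 4 wk (M4 and F4) or 8 wk (M8 and F8), with no treatment and no altered allele in any group. Each group had 2 pools, of 5 mice each at 3 wk and of 6 mice each at 4 and 8 wk. Pools of 2 groups labelled with different dyes competed on each of 14 Agilent whole mouse genome arrays, giving 7 comparisons (F8/F4, F8/F3, M8/M4, M8/M3, M8/F8, M4/F4 and M3/F3) with 2 arrays each, on which separate pools were used and the dyes exchanged. The comparisons ask which liver genes differ between the sexes at each age and which change between the prepubertal ages and young adulthood. Mice were pooled before labelling, so differences between single mice were not measured.

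Retinol from the diet is stored in liver as retinyl esters, which Lrat makes mainly in hepatic stellate cells, and it leaves the liver bound to Rbp4, which hepatocytes secrete. Retinol dehydrogenases interconvert retinol and retinal, retinal dehydrogenases turn retinal into retinoic acid, and retinoic acid acts through nuclear receptors such as Rarb. Cyp26a1 hydroxylates retinoic acid for clearance, and retinoic acid itself induces both Cyp26a1 and Rarb. Rdh16, Rdh16f2 and Rdh9 encode related short-chain dehydrogenases, several of which also act on steroids.

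Cyp26a1 and Rarb are the textbook genes switched on by retinoic acid. Their promoters are shown because their M8/M3 ratios had opposite signs, although that of Cyp26a1 did not pass the test described below. Both hold a response element, a direct repeat of 2 sites of 6 bases with a spacer of 5 bases. The sequences are from RefSeq (GRCm38.p6), written 5′ to 3′ on the strand of the gene, and the capitals mark the element. That of Cyp26a1 lies at chr19:37697716-37697807 on the plus strand, and its element begins 32 bases before the annotated start. That of Rarb lies at chr14:16575477-16575589 on the minus strand, and its element begins 53 bases before the start.
Cyp26a1: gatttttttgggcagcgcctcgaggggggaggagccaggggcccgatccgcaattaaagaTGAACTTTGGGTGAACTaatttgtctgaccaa
Rarb: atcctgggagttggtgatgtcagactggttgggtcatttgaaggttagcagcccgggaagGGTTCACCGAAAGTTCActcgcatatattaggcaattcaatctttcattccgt
The repeated site was searched on both strands as AGGTCA or AGTTCA, or as GGTTCA or GGGTCA, over 250 bases before and 50 bases after each start. With a spacer of 5 bases, 32 of 32851 RefSeq promoters (0.0974%) held a match. Promoters of Rdh16, Rdh16f2, Rdh9, Rdh11, Rbp4 and Lrat held no match with spacers of 5, 2 or 1 bases, and that of Rdh10 was not searched. A match describes letters and says nothing of binding in these livers.

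Of the 43020 non-control spots of an array, 55.2 to 77.2% per channel were well above background. All 11 probes of the 9 genes were well above background in both channels of all 14 arrays. The 6 hepatocyte markers Alb, Apoa1, Ttr, Tat, Cps1 and Hnf4a were likewise well above background in every channel, as the tissue label requires. All 4 proliferation markers (Mki67, Top2a, Cdk1 and Ccnb1) were lower at 8 wk than at 3 or 4 wk in both sexes, and 2 of 3 erythroid markers (Slc4a1 and Hbb-bt) were lower in the same 4 comparisons. The third, Alas2, was higher in M8/M3 (1.37 ± 0.16, adjusted p = 0.00229), M8/M4, M4/F4 and M8/F8 (1.89 ± 0.16, adjusted p = 0.000725). Of the 4 proliferation markers, 1 (Top2a) was called lower in M8/F8 (-1.12 ± 0.27, adjusted p = 0.0386). The part of these markers in the results below was not tested. In bulk liver RNA, fewer cells of a type and less RNA per cell cannot be told apart.

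The values of a gene are of 3 kinds. The first is the log2 ratio on each array, with males over females, or 8 wk over 3 or 4 wk. The next is the log2 ratio fitted with limma over all 14 arrays with a term for the dye (n = 2 arrays per comparison), given ± SE, with a p-value adjusted by the Benjamini-Hochberg method. The last is the level of the probe in each pool, in arbitrary units of signal averaged over the arrays that carried the pool, which is compared only within a probe. Calls required an adjusted p below 0.05 and a change of over 1.5-fold in either direction, provided that 1 group or both passed background on the 2 arrays. Among the alternatives tried below, the error-weighted average of the 2 arrays used an unadjusted p below 1e-04 in place of the adjusted p. The 7 comparisons share pools (M8 and F8 in 3 comparisons each), so they are not independent of each other.

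Of the 9 genes, 4 were called in at least 1 comparison (Rdh16f2, Rdh9, Rdh16 and Rarb) and 5 in none (Rdh10, Rdh11, Lrat, Rbp4 and Cyp26a1), beside 21.8% of all probes tested with a call in any of the 7. At 3 wk 1 gene, Rdh16f2, was called in M3/F3, where 0.296% of all probes tested were called lower in males. In M4/F4 the number was 2 (Rdh16f2 and Rdh9), against 0.89% of all probes called lower. In M8/F8 it was 3 (Rdh16f2, Rdh9 and Rarb), against 3.5% of all probes called lower. All of these calls were for lower levels in males, and no member was called higher in males at any age. With age, 2 genes fell in males from 3 to 8 wk (Rdh9 and Rarb, against 8.56% of all probes called lower) and 1 from 4 to 8 wk (Rdh16f2, against 5.43%). In females 2 genes rose from 3 to 8 wk (Rdh16 and Rdh16f2, against 5.32% of all probes called higher) and 1 from 4 to 8 wk (Rdh16, against 2.43%). The median log2 ratio of the 9 genes in the sex comparisons was 0.00 at 3 wk, -0.30 a week later and -0.41 at 8 wk, beside medians between 0.00 and 0.01 over all probes tested.

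**Figure D1:**
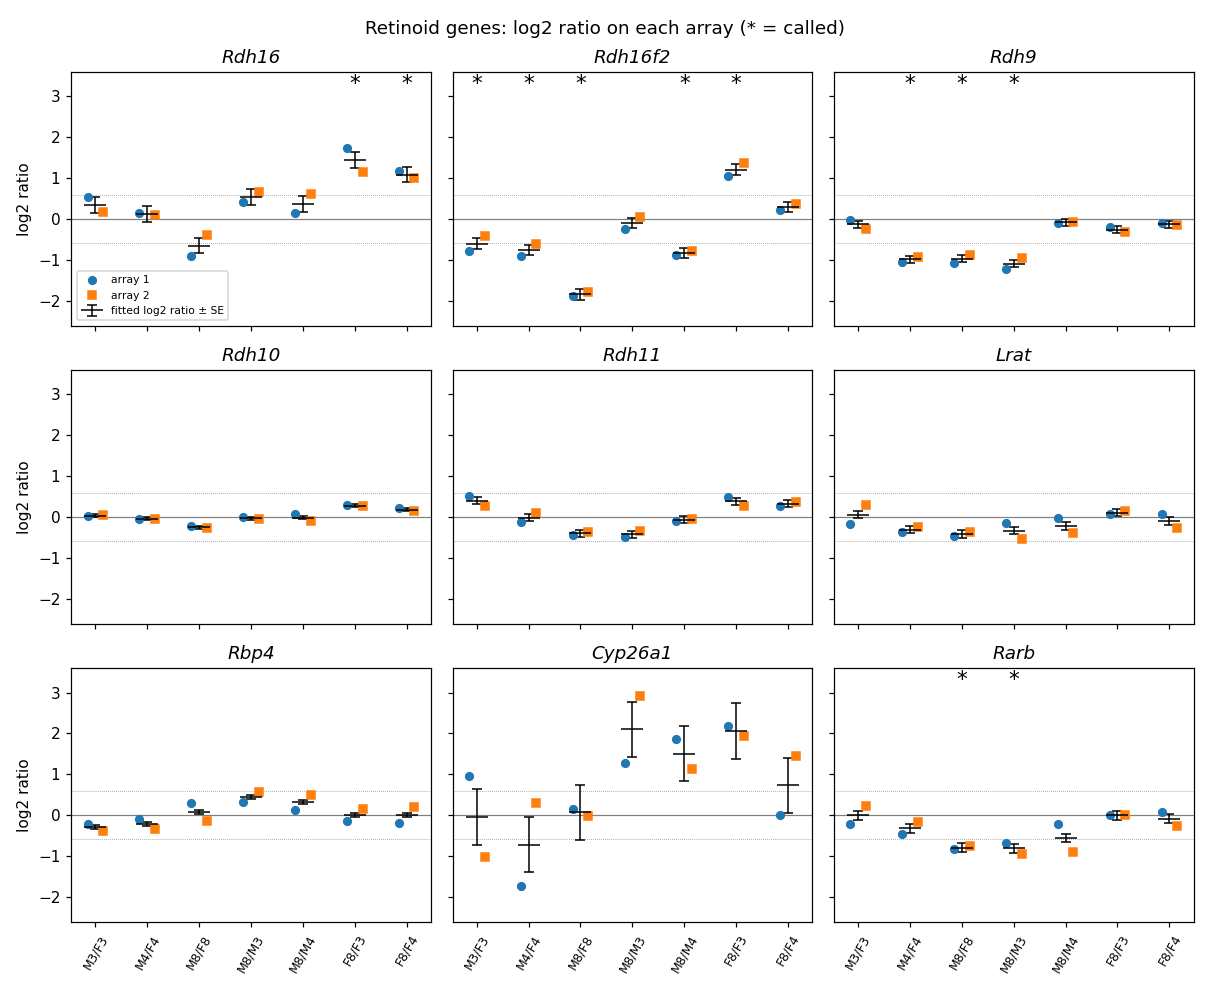
The log2 ratio (y axis) of each of the 9 genes in the 7 comparisons (x axis), with circles for array 1, squares for array 2, horizontal bars for the fitted ratio with its SE, dotted lines at 1.5-fold higher and lower, and an asterisk where the gene was called. Rdh16f2 lies below 0 on both arrays of all 3 sex comparisons, and the 2 arrays of Cyp26a1 lie on opposite sides of 0 in M3/F3 and M4/F4.

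Rdh16f2 was lower in males than in females at every age, and the gap widened at 8 wk. In M3/F3 its log2 ratios were -0.77 and -0.42, in M4/F4 -0.90 and -0.61, and in M8/F8 -1.88 and -1.79. All 6 arrays lay below 0, and the 8 wk arrays lay below all others. The fitted log2 ratio was -0.59 ± 0.13 at 3 wk (adjusted p = 0.0241), -0.76 ± 0.13 at 4 wk (adjusted p = 0.00957) and -1.84 ± 0.13 at 8 wk (adjusted p = 0.000371), the last a 3.57-fold difference. The call at 3 wk was lost without array 1 (log2 ratio -0.38, adjusted p = 0.218), and the call at 4 wk likewise (log2 ratio -0.58, adjusted p = 0.103). The level in females went from 12200 and 9900 in the 2 pools of F3 to 21700 and 21300 in F4 and 26600 and 27800 in F8. In males it was 6180 and 6620 in M3, 10500 and 13100 in M4, and 5710 and 7330 in M8. Thus the levels of both sexes were higher at 4 wk than at 3 wk, and only in males was the level at 8 wk below that at 4 wk in both pools.

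In the age comparisons, the F8/F3 ratios of Rdh16f2 were 1.05 and 1.37 (fitted 1.21 ± 0.13, adjusted p = 0.00159, 2.31-fold), and the F8/F4 ratios were 0.23 and 0.36 (0.30 ± 0.13, adjusted p = 0.199, not called). The M8/M3 ratios were -0.25 and 0.07 (-0.09 ± 0.13, adjusted p = 0.818). The M8/M4 ratios were -0.87 and -0.78 (-0.82 ± 0.13, adjusted p = 0.00687), and the call was lost without either array (adjusted p = 0.0649 and 0.051). The difference between the sexes in the change with age was itself called, at -1.30 ± 0.18 on the log2 scale from 3 to 8 wk (adjusted p = 0.0139) and -1.12 ± 0.18 from 4 to 8 wk (adjusted p = 0.0388). The first was lost without M8/M3 array 1 (adjusted p = 0.0834) or F8/F3 array 2 (0.0738), and the second without any 1 of its 4 arrays (0.125 to 0.17) and when the covariance held the shared pools (0.103). In the order of the group means, F8 lay above F4, then M4 and F3 with overlapping pools, then M8 and M3 with overlapping pools. The second probe of Rdh16f2 gave the same calls in the 7 comparisons with a log2 ratio of -2.16 ± 0.16 in M8/F8, and its 4 to 8 wk difference between the sexes was -1.31 ± 0.23 (adjusted p = 0.0526, not called).

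Rdh9 was lower in males at 4 and 8 wk. Its M3/F3 ratios were -0.02 and -0.23, its M4/F4 ratios -1.04 and -0.92, and its M8/F8 ratios -1.06 and -0.88. The arrays at 4 and 8 wk overlapped with each other and lay apart from those at 3 wk. The fitted values were -0.13 ± 0.08 (adjusted p = 0.44), -0.98 ± 0.08 (adjusted p = 0.00076) and -0.97 ± 0.08 (adjusted p = 0.000792), the last 2 being differences of 1.97-fold and 1.96-fold. The change was in males. The level was 4800 and 4810 in the pools of M3, 2250 and 2460 in M4 and 2090 and 2370 in M8, so that the pools of M4 and M8 overlapped. In females the level was 4920 and 5470 in F3, 4700 and 4600 in F4 and 4410 and 4190 in F8. The fitted M8/M3 ratio was -1.08 ± 0.08 (arrays -1.22 and -0.95, adjusted p = 0.000527), and the M8/M4 ratio was -0.08 ± 0.08 (arrays -0.08 and -0.07, adjusted p = 0.698). The F8/F3 ratio was -0.25 ± 0.08 (arrays -0.18 and -0.32, adjusted p = 0.105). No array compared M4 with M3. Through the shared M8 pools, M4 over M3 was -1.13 in replicate 1 and -0.88 in replicate 2. Through the shared F8 pools, F4 over F3 was -0.09 and -0.17. The 3 to 8 wk change differed between the sexes by -0.83 ± 0.12 (adjusted p = 0.0149), and the 4 to 8 wk change by 0.04 ± 0.12 (adjusted p = 1). The first of these was lost without M8/M3 array 1 (adjusted p = 0.0723), F8/F3 array 1 (0.0898) or F8/F3 array 2 (0.0524). It was also lost with the error-weighted average (unadjusted p = 0.000132, threshold 1e-04).

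Rdh16 rose with age in females. Its F8/F3 ratios were 1.73 and 1.15 and its F8/F4 ratios 1.18 and 1.01, all above the 1.5-fold line. The fitted values were 1.44 ± 0.19 (adjusted p = 0.00402, 2.72-fold) and 1.09 ± 0.19 (adjusted p = 0.0116, 2.13-fold), and the second call was lost without either array (adjusted p = 0.105 and 0.0655). In males the M8/M3 ratio was 0.54 ± 0.19 (arrays 0.42 and 0.66, adjusted p = 0.127) and the M8/M4 ratio 0.37 ± 0.19 (arrays 0.14 and 0.61, adjusted p = 0.289), neither called. The level was 947 and 1180 in the F3 pools, 1520 and 1330 in F4 and 3690 and 2780 in F8, against 1150 and 1330 in M3, 1590 and 1420 in M4 and 1750 and 2180 in M8. Both pools of F8 lay above all other pools, those of M8 came next, and the pools of the other groups overlapped with a neighbour. The M8/F8 ratios were -0.89 and -0.39 (fitted -0.64 ± 0.19, 1.56-fold, adjusted p = 0.078), which missed the threshold. It passed in 4 of the alternatives tried, among them the fit with the shared pools in the covariance (adjusted p = 0.0437). The difference between the sexes in the 3 to 8 wk change was -0.90 ± 0.27 (adjusted p = 0.138), so the female rise was not shown to exceed the male one. With 6 group means in place of 7 comparisons this difference was called (adjusted p = 0.00425), as was that from 4 to 8 wk (0.0223).

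Rdh16f2, Rdh9 and Rdh16 lie in one cluster on chromosome 10, where the order of protein-coding genes is Rdh1, Rdh9, Rdh16, Rdh19, Rdh16f2 and Rdh7. Genes of this cluster are similar in sequence, and whether a probe also bound the transcript of a neighbour was not tested. Rdh1 and Rdh19, which are not among the 9, were called in the same direction as Rdh16f2 in M8/F8 (-0.87 ± 0.17, adjusted p = 0.0159, and -0.87 ± 0.18, adjusted p = 0.0199), while Rdh7 was not called (-0.13 ± 0.05, adjusted p = 0.169). The probe of Rdh19 was well above background in 6 of 6 channels of F8 and in 3 of 6 channels of M8.

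**Figure D2:**
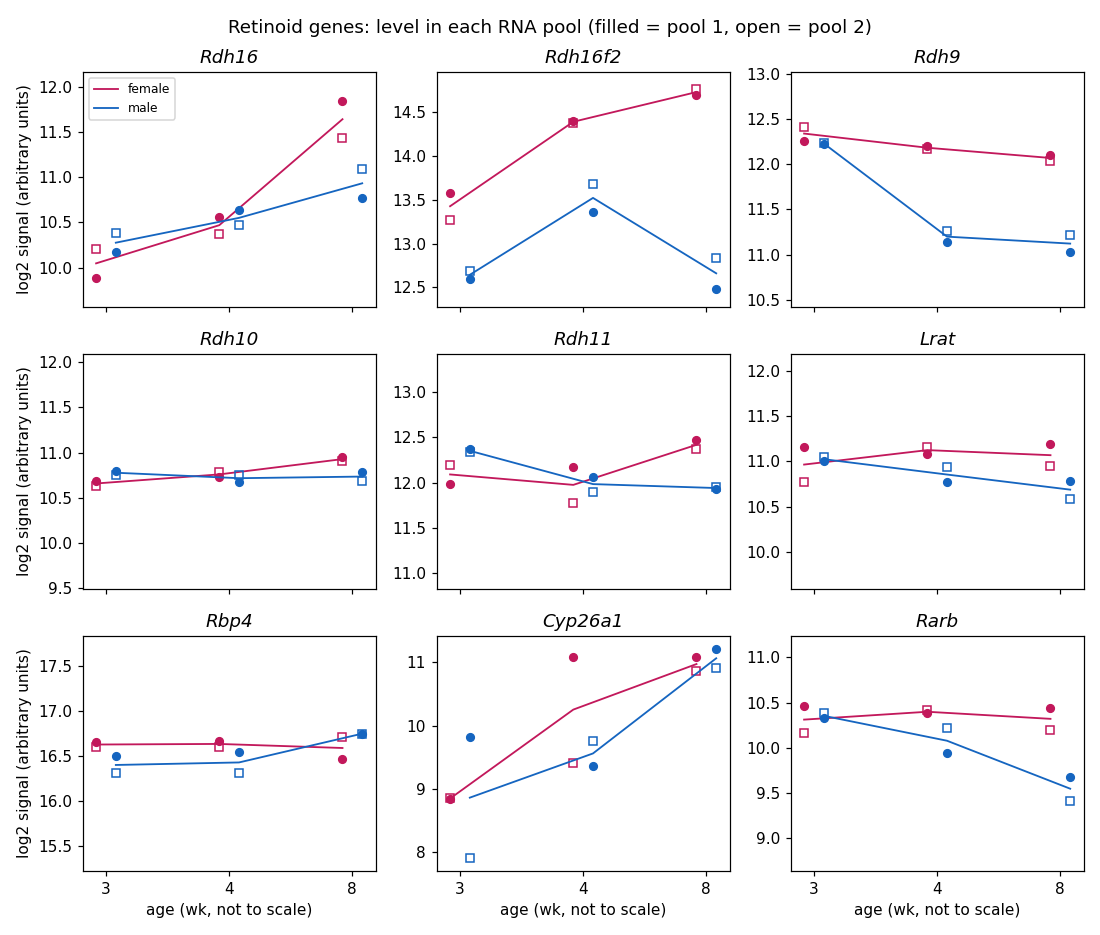
The level of each gene (y axis, log2 of signal in arbitrary units) in each pool against age group (x axis), females in red and males in blue, with filled circles for pool 1, open squares for pool 2 and lines through the means. The male line of Rdh9 drops between 3 and 4 wk, that of Rdh16f2 between 4 and 8 wk, and that of Rarb is lowest at 8 wk.

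Rdh10, which oxidizes retinol and is the main enzyme of this step in the embryo, and Rdh11, which works mostly as a retinal reductase, moved within narrow limits. The mean levels of the 6 groups spanned 1.21-fold for Rdh10 and 1.39-fold for Rdh11. Rdh10 was at 1980 and 1920 in the F8 pools, above all other pools, which ran from 1590 to 1780. Its M8/F8 ratios were -0.21 and -0.27 (fitted -0.24 ± 0.04, adjusted p = 0.00816) and its F8/F3 ratios 0.29 and 0.27 (0.28 ± 0.04, adjusted p = 0.00463), differences of 1.18-fold and 1.21-fold that were under the fold threshold. Rdh11 had opposite sex ratios at 3 and 8 wk. Its M3/F3 ratios were 0.52 and 0.29 (0.41 ± 0.09, adjusted p = 0.0215), and its M8/F8 ratios were -0.43 and -0.35 (-0.39 ± 0.09, adjusted p = 0.025). Over the same interval the M8/M3 value was -0.41 ± 0.09 (adjusted p = 0.0204) and the F8/F3 value 0.39 ± 0.09 (adjusted p = 0.0251). None of these 4 values passed the fold threshold, while the difference between the last 2 did, at -0.80 ± 0.12 (adjusted p = 0.0177, 1.74-fold). That call was lost with the slide as a block (adjusted p = 0.0511) and without either M8/M3 array (0.106 and 0.0578) or F8/F3 array 1 (0.0937). It was also lost with the error-weighted average (unadjusted p = 0.000122, threshold 1e-04).

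Between 3 and 8 wk, 4 of the 9 genes (Rdh16f2, Rdh9, Rdh11 and Rarb) changed differently in males and females, against 1.55% of all probes tested in the same direction and 3.22% in either. Between 4 and 8 wk the number was 1 (Rdh16f2), against 0.543% in the same direction and 1.34% in either. In each case the male change was lower than the female one. From 3 to 8 wk the difference of 2 further genes had an adjusted p below 0.05 under the fold threshold, -0.30 ± 0.06 for Rdh10 (adjusted p = 0.0331) and, with the male change higher, 0.44 ± 0.07 for Rbp4 (adjusted p = 0.02). The number for 3 to 8 wk was 2 with the slide as a block and 0 to 2 without 1 array. It was 1 with the error-weighted average, where Rdh9, Rdh11 and Rarb missed the threshold of 1e-04 (unadjusted p = 0.000132, 0.000122 and 0.000134). The number for 4 to 8 wk was 0 without any 1 array. All 9 genes had been chosen with earlier results of these data known, so the shares are given for scale only.

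Lrat, the enzyme that stores retinol as ester, was not called in any comparison. Its M8/F8 ratios were -0.46 and -0.35 (fitted -0.41 ± 0.09, 1.32-fold, adjusted p = 0.0306), under the fold threshold. Its M4/F4 ratios were -0.35 and -0.25 (-0.30 ± 0.09, adjusted p = 0.0848), and its M3/F3 ratios of -0.16 and 0.30 lay on both sides of 0. The level was 1760 and 1540 in the M8 pools and 2340 and 1980 in the F8 pools, and every group overlapped with its neighbour in the order of the means.

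Rbp4, the carrier of retinol in plasma, had the brightest probe of the 9 genes, and its group means spanned 1.27-fold. The M8/M3 ratios were 0.33 and 0.57 (fitted 0.45 ± 0.05, 1.37-fold, adjusted p = 0.00166) and the M8/M4 ratios 0.14 and 0.50 (0.32 ± 0.05, adjusted p = 0.0062), both under the fold threshold. In M3/F3 the ratios were -0.20 and -0.38 (-0.29 ± 0.05, adjusted p = 0.00862) and in M4/F4 -0.08 and -0.32 (-0.20 ± 0.05, adjusted p = 0.0353). The F8/F3 ratios of -0.14 and 0.17 (0.01 ± 0.05), the F8/F4 ratios of -0.20 and 0.20 (0.00 ± 0.05) and the M8/F8 ratios of 0.31 and -0.13 fell on both sides of 0. A dye term of 0.15 was fitted for this probe, which lies near the 95th percentile of its size over all probes (0.163), and the SE given is what remains after this term. The dye terms of Cyp26a1 (0.16), Rarb (-0.15) and Lrat (-0.12) were also large beside the median size of 0.0469. The level was 110000 in both M8 pools, above all other pools, and from 81100 to 95700 in those of M3 and M4.

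Cyp26a1 varied more between pools of one group than any other gene of the 9. Its M3/F3 ratios were 0.95 and -1.02, and its M4/F4 ratios were -1.72 and 0.29, so that the 2 arrays of each comparison disagreed in sign. At 8 wk the M8/F8 ratios were 0.16 and -0.02. The fitted SE was 0.68 for each comparison, against 0.04 to 0.19 for the other genes. The level in M3 was 903 in pool 1 and 239 in pool 2, a 3.78-fold gap, and in F4 it was 2180 and 682, a 3.20-fold gap. The pools of F3 were at 459 and 461, those of M4 at 658 and 864, those of M8 at 2380 and 1930, and those of F8 at 2180 and 1860.

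For each replicate, the M/F ratio at 3 or 4 wk can also be reached through 3 other arrays that carried the same pools, as M8/F8 minus M8/M3 plus F8/F3 (or the 4 wk arrays) on the log2 scale. For Cyp26a1 at 3 wk this gave 1.07 in replicate 1 and -0.998 in replicate 2, beside 0.95 and -1.02 on the direct arrays. At 4 wk it gave -1.70 and 0.30, beside -1.72 and 0.29. Over the 9 genes, 2 ages and 2 replicates the direct and indirect values differed by 0.18 at most, with a median of 0.03 (n = 36). The pools of F3, F4 and M8 carried both dyes over their arrays, and those of M3, M4 and F8 carried 1 dye each. The log2 level of Cyp26a1 in F4, measured with both dyes, was 11.09 in pool 1 and 9.41 in pool 2, with SDs over the 2 arrays of 0.008 and 0.09, so the gap between these pools was larger than the spread over arrays and dyes. Each M3 pool carried 1 dye, so the gap between their log2 levels (9.82 and 7.90) mixes pool and dye. The dye term fitted for this probe over all 14 arrays was 0.16 on the log2 scale. The part of the dye in this gap was not tested.

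**Figure D3:**
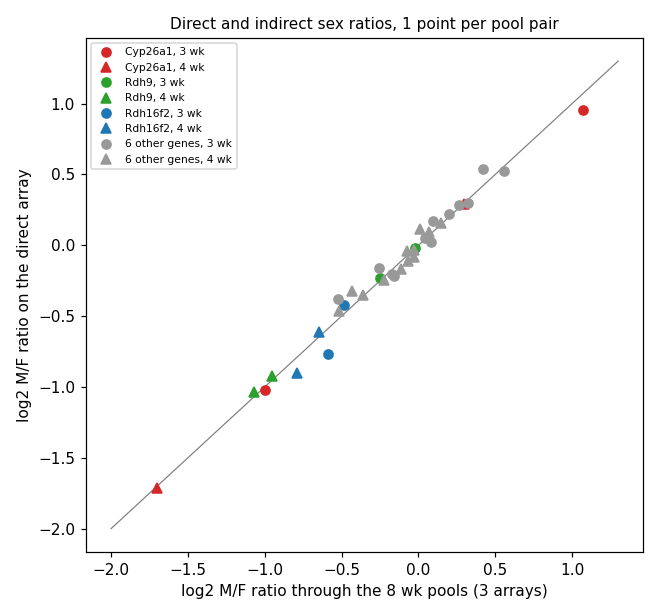
The log2 M/F ratio on the direct array (y axis) against the ratio reached through 3 other arrays and the 8 wk pools (x axis), 1 point for each gene, age and replicate, with a line where both are equal. The 4 points of Cyp26a1 lie close to the line but far apart from each other, from -1.72 to 0.95.

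With age, Cyp26a1 had higher values at 8 wk than at 3 wk on every array. The M8/M3 ratios were 1.28 and 2.92 and the F8/F3 ratios 2.19 and 1.94. The fitted values of 2.10 ± 0.68 (4.29-fold, adjusted p = 0.0956) and 2.06 ± 0.68 (4.18-fold, adjusted p = 0.101) did not pass the test. With 6 group means in place of 7 comparisons both were called (adjusted p = 0.0152 and 0.0181), and neither was when the covariance held the shared pools (0.0682 and 0.0724). The error-weighted average, which uses the modelled error of each array and not the spread between pools, called both, and M8/M4 also, and normexp with loess called F8/F3 (adjusted p = 0.0356). The M8/M4 ratios were 1.87 and 1.14 (1.51 ± 0.68, adjusted p = 0.217) and the F8/F4 ratios 0.01 and 1.45 (0.73 ± 0.68, adjusted p = 0.627). All 4 pools at 8 wk lay above those of F3, M3 and M4, and pool 1 of F4 lay among them.

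Rarb, the other gene with the response element shown above, fell in males. Its M8/M3 ratios were -0.67 and -0.94 (fitted -0.80 ± 0.11, 1.75-fold, adjusted p = 0.00388) and its M8/F8 ratios -0.83 and -0.75 (-0.79 ± 0.11, 1.73-fold, adjusted p = 0.00414). The F8/F3 ratios were 0.00 and 0.01 (0.01 ± 0.11). In M8/M4 the arrays differed, at -0.22 and -0.89 (-0.55 ± 0.11, adjusted p = 0.0161), and the fitted value was just under the fold threshold of 0.585 on the log2 scale, which it passed without array 1 (-0.77, adjusted p = 0.0136). The level was 820 and 681 in M8, below all other pools, 981 and 1190 in M4 and between 1150 and 1410 in the other 4 groups. The 3 to 8 wk difference between the sexes was -0.81 ± 0.15 (adjusted p = 0.0355). This call was lost in 10 of 13 alternatives, among them the replicate block (adjusted p = 0.0539), the shared pools in the covariance (adjusted p = 0.0747) and the fits without any 1 of its 4 arrays (0.0594 to 0.161). The second probe of Rarb gave -0.73 ± 0.15 in M8/F8 (adjusted p = 0.0193) and -0.76 ± 0.15 in M8/M3 (adjusted p = 0.0165), both called, and its difference between the sexes was -0.78 ± 0.21 (adjusted p = 0.10, not called).

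Stellate cells hold most of the retinoid of the liver, so the values of their markers are given beside those of Lrat and Rarb. Of 9 stellate markers, 7 were bright enough to test in M8/F8, with a median log2 ratio of -0.24. Limma and the error-weighted alternative called 0 of them at the fold threshold, but 4 (Reln, Ecm1, Hand2 and Lhx2) were lower in males with an adjusted p below 0.05 in limma, the same number as with an unadjusted p below 0.05. In M8/M3 8 were tested, with a median of -0.42, and 2 (Reln and Hgf) were called lower. In F8/F3, where the fitted values of Rarb and Lrat were 0.01 and 0.11, the median of the 8 markers tested was -0.29. The summed level of the 9 markers was 18100 and 15100 in the M8 pools, 20800 and 19800 in F8, 19200 and 18200 in M3, and 22700 and 19600 in F3, a sum over the same 9 probes in which the brightest weigh most. Des was well above background in 21 of 28 channels and Gfap in 7 of 28. In M8/M3 markers of other cells were also called lower: Adgre1 (1 of 4 for Kupffer cells), Lyve1 (1 of 4 for sinusoidal endothelium), Krt7 and Krt19 (2 of 4 for bile duct) and Alb (1 of 6 for hepatocytes). Of the 4 Kupffer cell markers, 2 (Clec4f and Adgre1) were called lower in M8/F8, where the median was -0.57. The others, Cd5l (-0.54, adjusted p = 0.0143) and Vsig4 (-0.55, adjusted p = 0.0241), were lower in males under the fold threshold. Of the 6 hepatocyte markers, 3 (Alb, Tat and Cps1) were lower in males there with an adjusted p below 0.05, also under the fold threshold. The part of these cells in the values of Lrat and Rarb was not tested.

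By Pearson's r over the 14 log2 ratios, among 1479 probes of named genes that changed at least 2-fold in some comparison, the genes most like Rdh16f2 were Mfsd2a (r = 0.972) and Zap70 (r = 0.967). Those most like Rdh9 were Akr1b7 (r = 0.951) and Slc13a3 (r = 0.95). Those most like Rdh16 were Serpinb1a (r = 0.946) and Cyp17a1 (r = 0.944), and those most like Rarb were Klhl13 (r = 0.948) and Slc16a5 (r = 0.946). The 14 ratios share pools, so these values are descriptions.

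Of 49 other genes of the pathway, 48 had a probe, 42 were bright enough in some comparison and 18 were called at least once, against 21.8% of all probes. In M3/F3 1 was higher and 1 lower in males among 37 tested, where 0.464% of all probes were called in either direction. The numbers were 3 higher and 0 lower among 38 in M4/F4 (against 1.44%), and 1 higher and 4 lower among 40 in M8/F8 (against 6.31%). In M8/M3 4 rose and 7 fell among 41 (against 16.8%), and in M8/M4 1 rose and 2 fell among 42 (against 10.1%). In F8/F3 8 rose and 4 fell among 41 (against 10.8%), and in F8/F4 4 rose and 2 fell among 40 (against 5.41%). The change from 3 to 8 wk differed between the sexes for 1 of 41 (Sdr16c5, against 3.22%). From 4 to 8 wk limma called 0 of 42, with 12 at an unadjusted p below 0.05, and the error-weighted alternative called 1.

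Among the dehydrogenases, Sdr16c5, a retinol dehydrogenase, was higher in males at 8 wk, where Rdh16f2, Rdh9 and Rarb were lower. It was at least 3.84-fold higher in M8 than in F8 and at least 2.08-fold lower in F8 than in F3. These are lower bounds, since its probe was not well above background in any of the 6 channels of F8, and F8 was set on each array to at least the lowest signal well above background. The adjusted p-values of 0.00118 and 0.00575 belong to the fitted ratios of the dim signal and not to the bounds, and the called difference between the sexes from 3 to 8 wk rests on the same F8 signal. Its M4/F4 ratios were 2.50 and 2.62 (2.56 ± 0.38, adjusted p = 0.00586), where the probe was well above background in 4 of 4 channels of M4 and 1 of 4 of F4. Adh1, an alcohol dehydrogenase that oxidizes retinol, fell in M8/M3 (-0.90 ± 0.10, adjusted p = 0.00159) and was lower in males in M8/F8 (-0.64 ± 0.10, adjusted p = 0.00604).

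Of the retinal dehydrogenases, which form retinoic acid, Aldh1a3 fell with age in both sexes (M8/M3 -1.15 ± 0.10, adjusted p = 0.000764, and F8/F3 -1.52 ± 0.10, adjusted p = 0.000301), and Aldh1a1 rose (M8/M3 0.60 ± 0.13, adjusted p = 0.0221, and F8/F3 0.71 ± 0.13, adjusted p = 0.0115). Cyp26b1, which hydroxylates retinoic acid as Cyp26a1 does, rose in F8/F3 with arrays at 1.18 and 2.31 (1.75 ± 0.43, adjusted p = 0.0383) and was not called in M8/M3 (1.06 ± 0.43). None of the 5 receptor genes Rara, Rarg, Rxra, Rxrb and Rxrg was called by limma in any of the 7 comparisons or by the error-weighted alternative, and 2 of their 35 values had an adjusted p below 0.05 (8 an unadjusted one). Of the target genes on the list, Tgm2 fell in M8/M3. Smaller ratios, called once each, were those of Awat2, Bco1, Bco2, Dhrs3 and Adh7.

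Among genes of binding and storage, Fabp5, which carries fatty acids and retinoic acid in the cell, fell in all 4 age comparisons, and by most in M8/M3 (-2.20 ± 0.16, adjusted p = 0.000405). It was higher in males in M3/F3 (0.64 ± 0.16, adjusted p = 0.0389) and M4/F4 (0.66 ± 0.16, adjusted p = 0.0342). Pnpla3, a lipase of lipid droplets that can hydrolyse retinyl esters, fell in M8/M3 (arrays -2.98 and -3.59, fitted -3.28 ± 0.46, adjusted p = 0.00454). It was not called in F8/F3 (arrays 0.37 and -1.66, fitted -0.65 ± 0.46). The sex difference of Pnpla3 in this change was not called either (-2.64 ± 0.65, adjusted p = 0.0788). Lipe, hormone-sensitive lipase, rose in all 4 age comparisons, by 1.09 ± 0.11 in M8/M3 and 0.93 ± 0.11 in F8/F3. Retsat, which saturates retinol, rose in M8/M3 (1.17 ± 0.12) and F8/F3 (0.79 ± 0.12) and was higher in males in M4/F4 (0.97 ± 0.12, adjusted p = 0.00262). Ces1d, a carboxylesterase, was lower in M8 than in F8 (-0.70 ± 0.08, adjusted p = 0.0024).

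**Figure D4:**
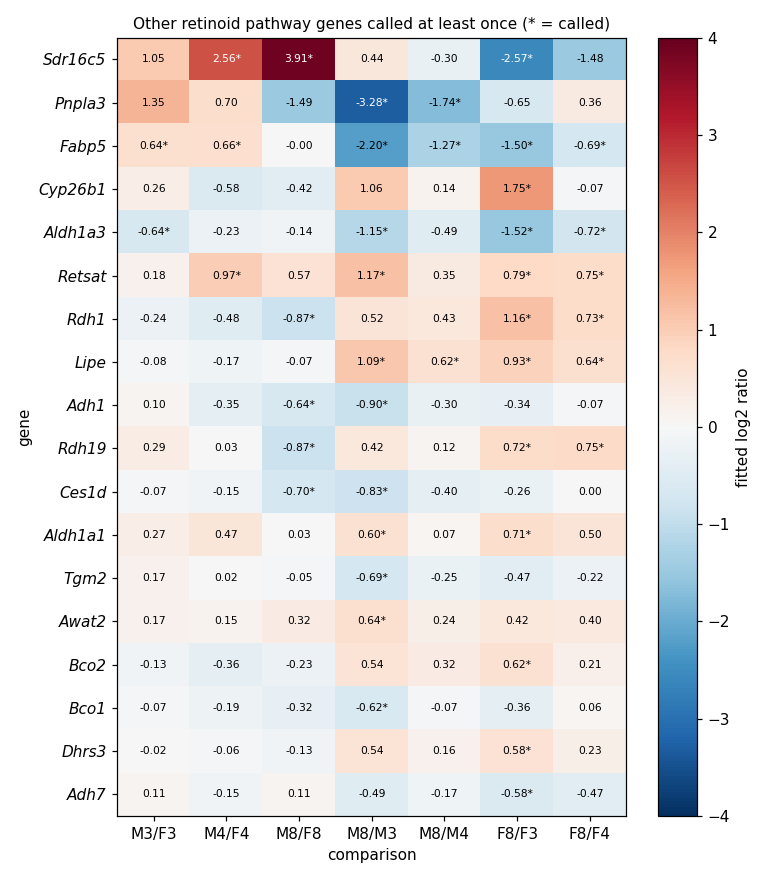
Fitted log2 ratios of the 18 other pathway genes called at least once (rows) in the 7 comparisons (columns), red for higher and blue for lower, with an asterisk where the gene was called. Sdr16c5 stands at 3.91 in M8/F8, a value that rests on a dim F8 probe, and Fabp5 and Lipe were called in all 4 age comparisons.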

How the data were processed

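Liver RNA of the 6 groups was amplified, labelled with a green or a red Alexa dye and hybridized to Agilent 4x44k arrays. The authors processed each array with Feature Extraction, with linear and LOWESS dye normalization, and deposited for each spot the log10 ratio of red over green, its modelled error, and the processed and median intensity of each channel in arbitrary units. The deposited series table holds the same log10 values. Here ratios were converted to log2 and turned by the dyes that the labels give. The paper's methods state the opposite dye for the first pools. Directions were taken from the labels. With them Xist was lower in males and the Y-linked genes Ddx3y, Eif2s3y, Kdm5d and Uty were higher on 6 of 6 sex arrays, and the age arrays closed the loops with the sex arrays. Spots of a probe were averaged, and between 0 and 10 non-uniform spots per array were left out. Of 39429 probes, 26055 were named through RefSeq accessions. A gene with several probes was taken at the probe with the highest mean signal.

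Log2 ratios were fitted in R 4.3.3 with limma 3.58.1, with 7 comparison coefficients and 1 dye term over all 14 arrays (6 residual degrees of freedom). The Benjamini-Hochberg adjustment ran over the p-values of every probe in the 7 comparisons at once, and separately within each sex by age difference, the male change to 8 wk minus the female one. With 2 pools per group an exact permutation test cannot reach a two-sided p below 0.33, and the number of arrays limits the precision. The model does not include the pools that arrays share, which was tried as an alternative. Levels were processed intensities after Aquantile normalization between arrays.

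Arrays with the same replicate number carried the same pools: deviations of the replicates agreed around the loop of arrays at 3 wk and at 4 wk (r = 0.882 and 0.878 over 21650 probes). The members, the lists of other pathway genes and of cell type markers, the tests and the alternatives were chosen with earlier results of these data known. All members were described. Other pathway genes were named where called, with values for the 12 with the largest ratios, and for each called member the 2 most alike genes were named. Some listed genes are not reported here, and the counts leave them out.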

Additional observations from a re-analysis of the deposited data

Results flagged for a closer look

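The change from 3 to 8 wk differed between males and females for 4 of the 9 genes, tested as the male minus the female log2 change: -1.30 for Rdh16f2, -0.83 for Rdh9, -0.80 for Rdh11 and -0.81 for Rarb. From 4 to 8 wk it differed for Rdh16f2, by -1.12. Over all probes the shares called were 3.22% and 1.34%. Among the alternatives the number of the 9 genes called from 3 to 8 wk was as low as 0 without 1 array, and the call of Rarb was lost in 10 of 13.

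In 4 cases all arrays of one sex comparison lay on the opposite side of 0 from all arrays of another, and the difference itself was not tested in that form. For Rdh16, M8/F8 minus M3/F3 was -0.997 and M8/F8 minus M4/F4 was -0.78 on the log2 scale. For Rdh11, M8/F8 minus M3/F3 was -0.79, and for Rdh10 it was -0.28. Around the loop of arrays these correspond to sex differences in the change with age, which were tested. For Rdh16 those were -0.90 from 3 to 8 wk (adjusted p = 0.138) and -0.72 from 4 to 8 wk (0.324), not called. For Rdh11 it was -0.80 and called, as given above, and for Rdh10 it was -0.30 (0.0331), under the fold threshold.

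In 2 cases the male and the female age arrays lay on opposite sides of 0 and the tested difference was not called: Rdh11 from 4 to 8 wk (-0.39, adjusted p = 0.22) and Lrat from 3 to 8 wk (-0.44, adjusted p = 0.134).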

How the results depend on the processing

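Of 81 member values (9 genes, 7 comparisons and 2 sex by age differences), no called value reversed under any alternative. With the replicate block (same-numbered arrays share pools) 80 kept their side of the threshold and 1, the 3 to 8 wk difference of Rarb, was lost (adjusted p = 0.0539). The shared pools in the covariance (pool over array variance 4.17) lost 2 calls and gained 1, the slide block lost 2, normexp with loess lost 1 and gained 2, 6 group means lost 1 and gained 5, the error-weighted average lost 3 and gained 4, the mean of all probes lost 1, and no filter on dim probes and the deposited series table changed none. The number of members called moved by over 1.5 times in these cases: M3/F3 0 with 6 group means, where Rdh16f2 was just under the fold threshold; M8/M4 2 with the error-weighted average; the 3 to 8 wk difference 2 with the slide block and 1 with the error-weighted average; the 4 to 8 wk difference 2 with 6 group means and 0 with the shared pools. Leaving out 1 array gave 0 to 1 members in M3/F3, 1 to 2 in M4/F4, 0 to 1 in M8/M4, 0 in F8/F4, 0 to 2 for the 3 to 8 wk difference and 0 for the 4 to 8 wk difference. Over all probes, the number called in M3/F3 (105) was 185 with 6 group means, 184 with no filter on dim probes, 235 with the error-weighted average and 158 without array 2. It was 483 with the error-weighted average and 209 without array 1 in M4/F4 (319), 2093 with normexp in M8/M3 (4255), 1586 without array 2 in M8/M4 (2673), 1846 without array 2 in F8/F3 (2824) and 796 without array 1 in F8/F4 (1432). For the 3 to 8 wk difference (850) it was 1962 with 6 group means, 520 with the shared pools, 494 with normexp and 316 to 413 without 1 array. For the 4 to 8 wk difference (363) it was 1228 with 6 group means, 88 with the shared pools, 229 with the slide block, 674 with the error-weighted average and 115 to 251 without 1 array. The causes were not tested.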

Other observations

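By Pearson's r over the 14 log2 ratios, among the same 1479 probes as for the called genes, the genes most like Cyp26a1 were Egr1 (r = 0.932), an immediate-early transcription factor, and Nos1ap (r = 0.842). Cyp26a1 was looked up in this way after its values were seen, and the 14 ratios share pools, so these values are descriptions.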
